A study of Mus musculus with 20 samples.

Results

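Fatty acids do not dissolve freely in the cytosol. They are carried there by small intracellular binding proteins, which move them between the plasma membrane, the endoplasmic reticulum, mitochondria, peroxisomes, lipid droplets and the nucleus. The FABP family supplies most of this capacity and takes its names from the tissue in which each form is abundant, with Fabp1 as the liver form. Dbi, also called acyl-CoA binding protein, holds fatty acids once they are activated to acyl-CoA, and Scp2 encodes a sterol carrier protein that also binds fatty acyl-CoA and, in its long form, a peroxisomal thiolase. The nuclear receptors PPARα and PPARγ are activated by fatty acids and related lipids, and several FABP genes are known targets of these receptors.

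The 8 genes Fabp1, Fabp2, Fabp3, Fabp4, Fabp5, Fabp7, Dbi and Scp2 were described here, taken by gene symbol from the 22298 genes listed for each library. RNA was sequenced from the liver of 20 male Lepr db/db mice, an obese and diabetic strain without a working leptin receptor, with 1 library from each mouse and 5 mice in each of 4 groups. All mice received an AAV8 vector by tail vein at 5 weeks of age, with non-targeting shRNA in the Vec and Vec+BBR groups and shRNA against Pparg, the gene of PPARγ, in the shRNA and shRNA+BBR groups. The Vec+BBR and shRNA+BBR groups then received benzbromarone (BBR), a uric acid lowering drug, at 25 mg/kg daily for 4 weeks, and the other groups received the vehicle. The shRNA acts in whichever liver cells the vector entered, and no group lacked the vector or the Lepr mutation. The groups ask whether BBR changed the liver and whether it still did so with less Pparg.

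Levels are given as normalized CPM, the count of a gene scaled to the TMM-adjusted total count of its library. TMM gives each library a scaling factor, here from 0.873 to 1.14. Deposited FPKM is used where genes are compared with each other, because FPKM is scaled for length. Fold changes are on the log2 scale with their standard error (SE), from edgeR's quasi-likelihood test of counts over 12342 genes with Benjamini-Hochberg adjustment, and a gene was called at an adjusted p under 0.05. Total counts ran from 17432920 to 25024103 per library, and a count of 3, taken as the floor, was worth 0.121 to 0.193 CPM. The 7 hepatocyte markers summed to 120000 to 153000 CPM in Vec, 89000 to 125000 in Vec+BBR, 113000 to 129000 in shRNA and 104000 to 122000 in shRNA+BBR. Of these markers 3 were called lower in Vec+BBR than in Vec (Cps1, Serpina1a and Ahsg), 2 in shRNA than in Vec and 2 in shRNA+BBR than in shRNA, and their part in the results below was not tested. Since these are bulk samples, fewer cells of a type and less RNA per cell cannot be told apart.

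Pparg was measured first. It was at 16.4, 20.1, 35.9, 19.4 and 32.1 CPM in Vec, and at 7.31, 6.53, 5.96, 3.24 and 5.63 CPM in shRNA. With BBR it was at 34.8, 29.8, 28.0, 28.1 and 38.3 CPM in Vec+BBR, and at 11.4, 9.99, 21.8, 18.9 and 7.19 CPM in shRNA+BBR. The knockdown groups lay below their control groups without overlap, and 2 shRNA+BBR livers exceeded the lowest Vec liver. The log2 fold change was -2.11 (SE 0.28, edgeR adjusted p = 4.47e-05) for shRNA against Vec and -1.2 (SE 0.26, edgeR adjusted p = 0.00843) for shRNA+BBR against Vec+BBR. Pparg was also higher in shRNA+BBR than in shRNA, by 1.28 (SE 0.28, edgeR adjusted p = 0.00773), and the interaction for Pparg was 0.92 (SE 0.38, edgeR adjusted p = 0.209).

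The library of Vec replicate 3 was the highest Vec liver for 7 of the 8 genes, all but Fabp7. For Pparg it was also the highest, at 35.9 CPM, with replicate 5 close to it at 32.1 CPM. How often it was the highest Vec liver over all tested genes was not counted. Cidec, a lipid droplet protein gene, was at 130 CPM in it and at 5.86, 5.59, 6.95 and 34.1 CPM in the other Vec livers, against 129 to 215 CPM in Vec+BBR. Its label is Vec in the sources used here, and whether the label is right was not tested. Fold changes of the 8 genes against Vec are therefore also given without this library. In the shRNA+BBR group, replicate 3 was the highest liver for 6 of the 8 genes, and results that rest on it are treated in the same way.

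The 8 genes differed widely in abundance. Fabp1 was the most abundant in the control group, at 3040 ± 1880 FPKM (SD, n = 5), and ranked between place 15 and place 92 among all genes of a Vec library. Scp2 followed at 1790 ± 187 FPKM and Dbi at 690 ± 274 FPKM. These 3 genes made up 50.6%, 35.6% and 12.5% of the summed FPKM of the 8 genes in a Vec library, as means of the shares in the 5 libraries. Fabp2, the intestinal form, was at 58.4 ± 18.5 FPKM, Fabp4, the adipocyte and macrophage form, at 9.56 ± 3.07 FPKM, and Fabp5, the epidermal form, at 3.61 ± 3.0 FPKM. Fabp7, the brain form, was at 1.44 ± 0.564 FPKM, and Fabp3, the heart and muscle form, at 0.106 ± 0.140 FPKM. The summed FPKM of the 8 genes was 5590 ± 2330 in Vec, 7160 ± 484 in Vec+BBR, 3810 ± 671 in shRNA and 6650 ± 1510 in shRNA+BBR. The plot of length-scaled levels shows that the 3 abundant carriers kept their place above the other 5 genes in every group.

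**Figure D1:**
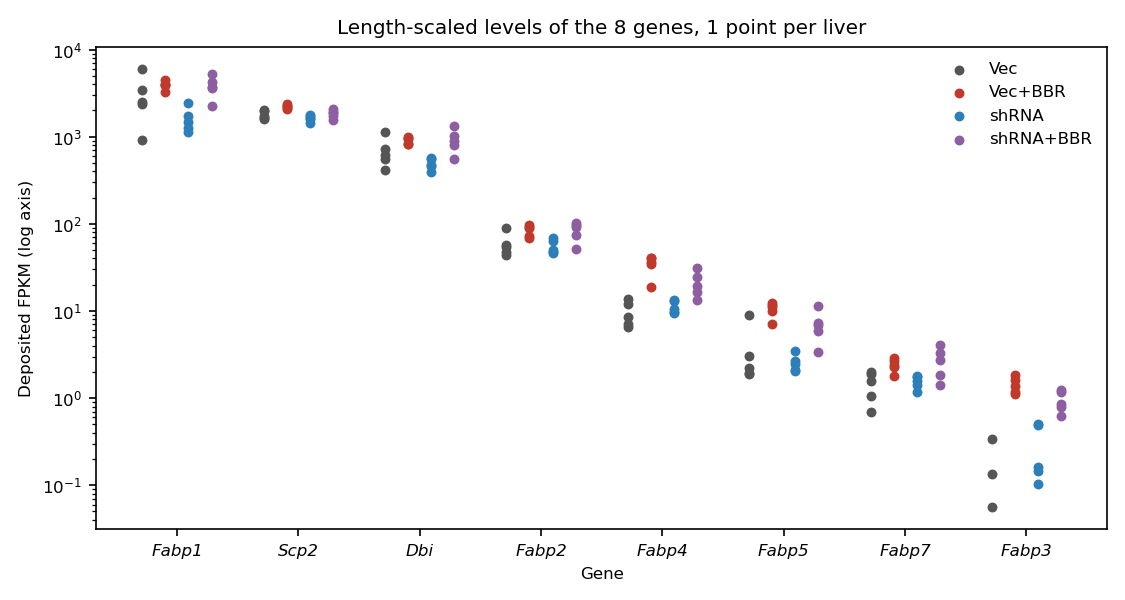
Deposited FPKM of the 8 genes on a log axis, with 1 point per liver and the 4 groups in colour. Fabp1, Scp2 and Dbi lie above the other genes in all groups, Fabp3 is lowest in Vec, and the 2 Vec livers with no Fabp3 count are not drawn.

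BBR raised 3 of the less abundant FABP genes, while the change of the liver form Fabp1 stayed within the spread between mice. In Vec+BBR against Vec, 3 of the 8 genes were called higher, namely Fabp3, Fabp4 and Fabp5, where 7.58% of all tested genes were called higher. None of the 8 was called lower by edgeR, where 7.88% of all tested genes were, and none was lower at an unadjusted p under 0.05 or by DESeq2. The median log2 fold change of the 8 genes was 0.50, against -0.01 over all tested genes. All 8 passed the filter on low counts, but Fabp3 did so only through its BBR libraries, so its difference was in part built into its being tested. Of the other 7 genes 2 were called, with a median of 0.39. Without Vec replicate 3, 4 of the 8 were called, Fabp2 being added, where 2395 of 12433 tested genes were called in either direction.

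In livers with Pparg knocked down, more of the 8 genes were called higher with BBR. In shRNA+BBR against shRNA, 7 of the 8 were called higher, all but Fabp7, against 8.36% of all tested genes. None was called lower by edgeR, against 7.28% of all tested genes, nor at an unadjusted p under 0.05 or by DESeq2. The median log2 fold change of the 8 was 0.91, against 0.01 over all tested genes. Fabp3 was tested through its BBR libraries here too, and of the other 7 genes 6 were called, with a median of 0.91. These calls rested on few livers, as did those over all tested genes, which fell from 1931 to 661 without shRNA+BBR replicate 3. Without shRNA+BBR replicate 3 only Fabp5 was called, without shRNA replicate 4 only 4 of the 8 were, and without shRNA+BBR replicate 1 or replicate 5 all 8 were. Pparg itself was higher in shRNA+BBR than in shRNA, as given above, and its part in these differences was not tested.

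With knockdown alone, 2 of the 8 genes were called lower and none higher, and these calls depended on the processing and on single livers. In shRNA against Vec, Fabp1 and Scp2 were called lower, where 7.89% of all tested genes were called lower and 5.29% higher. No member was higher at an unadjusted p under 0.05 or by DESeq2. The median log2 fold change of the 8 was -0.27, against -0.01 over all tested genes. Without Vec replicate 3 none of the 8 was called, where 1292 of 12433 tested genes were called in either direction. None was called either with no filter on low counts or in a fit of only these groups. Between the BBR groups, shRNA+BBR against Vec+BBR, none of the 8 was called by edgeR, where 3.31% of all tested genes were called higher and 4.84% lower. At an unadjusted p under 0.05, 2 of the 8 were lower, Fabp4 and Scp2, and DESeq2 called 1, Fabp4.

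The 2 effects of BBR, with and without knockdown, were compared by an interaction term. None of the 8 genes was called by edgeR, where 0.146% of all tested genes were called in either direction, and DESeq2 called none of the 7 for which it gave an adjusted p, all but Fabp3. At an unadjusted p under 0.05 there were 3, namely Fabp1 with a larger BBR effect under knockdown and Fabp3 and Fabp4 with a smaller one. So the different numbers of calls in the 2 backgrounds do not show that any of these genes responded differently. The comparisons share groups, and their values are given side by side below rather than compared. The plot of fold changes shows the intervals behind these counts.

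**Figure D2:**
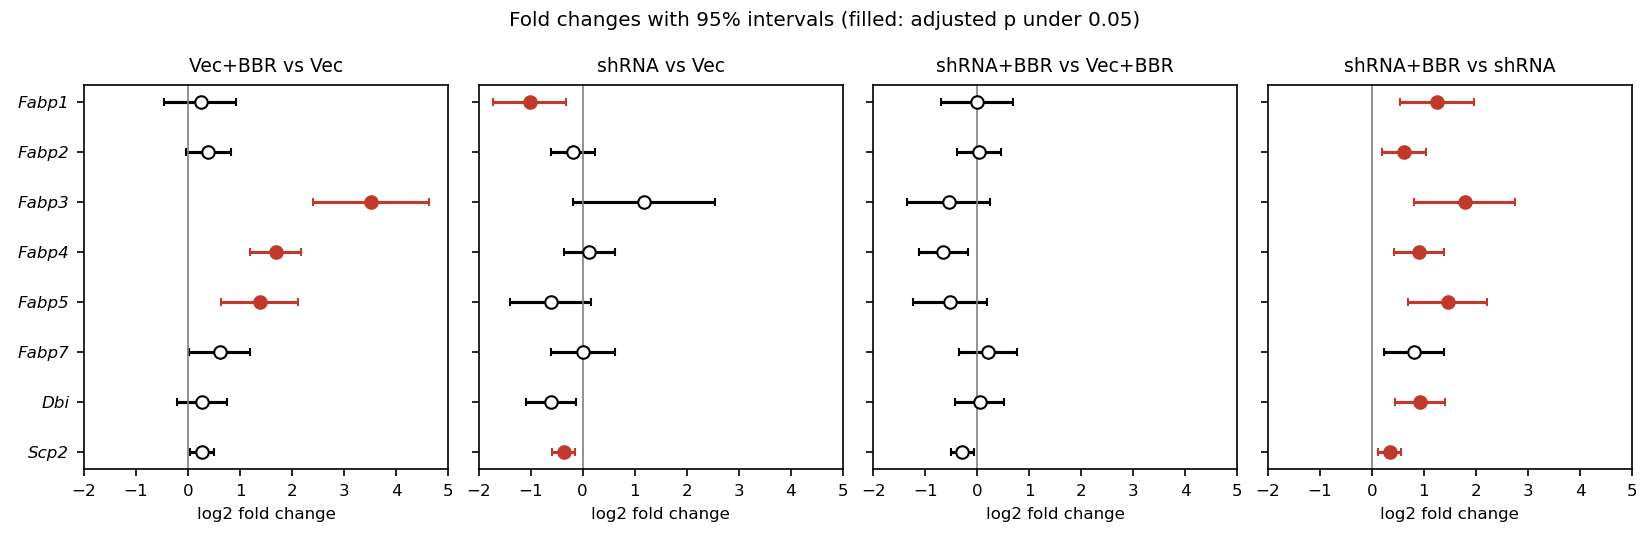
Log2 fold changes of the 8 genes in 4 comparisons, with 95% intervals from the edgeR fit and filled points for an adjusted p under 0.05. The Fabp3, Fabp4, Fabp5, Fabp7 and Scp2 intervals lie above 0 with BBR in both backgrounds, those of Fabp7 (both) and Scp2 (Vec+BBR against Vec) without an adjusted p under 0.05, while those of Fabp1, Fabp2 and Dbi do so only in the panel for shRNA+BBR against shRNA.

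Fabp1 is the main fatty acid carrier of the hepatocyte cytosol (ENSMUSG00000054422, chr6:71199827-71205023 on the plus strand of GRCm38, 4 exons). Its promoter is shown because it is a textbook PPAR target. Promoter windows of 300 bases, 250 before and 50 after the RefSeq start (build GRCm38.p6), matched 6 of the 8 genes in 7 windows, Fabp4 and Fabp5 having none. They were searched on both strands for a direct repeat of AGGTCA with 1 base of any kind between the copies, the general form of a PPAR response element, with up to 2 of its 12 fixed letters allowed to differ. Of all 32851 windows, 3.86% held such a match, and 0.554% held a match with at most 1 letter different. Among the 7 windows of the 8 genes, only that of Fabp1 did, at chr6:71199812-71199824. This lies just before the annotated gene start given above, which is upstream of the RefSeq start of the window. In the stretch below, on the plus strand, the capitals mark the match, which reads on the opposite strand, begins at base -67 from the RefSeq start and keeps 11 of the 12 letters. In motif direction it reads AGGCCATAGGTCA, and the difference is T4C, counted from 1 at the 5′ end of the motif.
Fabp1 promoter, chr6:71199752-71199826: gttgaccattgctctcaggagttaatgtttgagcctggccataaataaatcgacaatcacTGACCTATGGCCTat

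In Vec, Fabp1 varied more between mice than the other abundant members, Scp2 and Dbi. It was at 1470, 1480, 3530, 508 and 1950 CPM in Vec, and at 1360, 791, 962, 612 and 684 CPM in shRNA. It was at 2590, 1590, 2140, 2080 and 2140 CPM in Vec+BBR, and at 1950, 2130, 2940, 2300 and 1190 CPM in shRNA+BBR. The Vec livers spread from below every shRNA liver to above every BBR-treated liver, so Vec overlapped all other groups. The shRNA group was lowest on average, at 881 ± 296 CPM (SD, n = 5), and of its livers only replicate 1 exceeded the lowest shRNA+BBR liver.

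For Fabp1 the log2 fold change was -1.02 for shRNA against Vec (SE 0.34, edgeR adjusted p = 0.0485). Without Vec replicate 3, whose group mean was then 1350 ± 606 CPM (n = 4), it was -0.62 (edgeR adjusted p = 0.203). The call was also lost without Vec replicate 1, 2 or 5 and without shRNA replicate 2, 3, 4 or 5. It was kept without Vec replicate 4, the lowest Vec liver, at -1.26 (edgeR adjusted p = 0.0034). Without shRNA replicate 1 it was kept too, at -1.23 (edgeR adjusted p = 0.0312). With BBR under knockdown Fabp1 was higher by 1.25 (SE 0.34, edgeR adjusted p = 0.0197), and the adjusted p was 0.0648 without shRNA+BBR replicate 3 and 0.0509 without shRNA replicate 4. In Vec+BBR against Vec the change was 0.24 with a 95% interval from -0.46 to 0.93, and the groups were not told apart at this spread. Without Vec replicate 3 it was 0.63 (edgeR adjusted p = 0.154), and without Vec replicate 4 it was 0.0 (edgeR adjusted p = 0.997). Between the BBR groups the means were 2110 ± 355 and 2100 ± 632 CPM, with an interval of the log2 difference from -0.69 to 0.69.

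Fabp2, the form named for the small intestine, carries long-chain fatty acids in enterocytes (ENSMUSG00000023057, chr3:122895072-122899506, plus strand). It was at 56.3, 47.8, 92.2, 45.3 and 56.7 CPM in Vec, and at 91.6, 60.9, 92.9, 80.5 and 66.0 CPM in Vec+BBR. Apart from Vec replicate 3, the Vec livers all lay below the Vec+BBR livers. The log2 fold change was 0.39 (SE 0.20, edgeR adjusted p = 0.200), and without Vec replicate 3 it was 0.60 (edgeR adjusted p = 0.0303). In the knockdown groups Fabp2 was at 66.3, 47.5, 60.9, 43.6 and 44.5 CPM without BBR, and at 70.4, 92.7, 101, 91.9 and 47.9 CPM with it. Only shRNA+BBR replicate 5 lay within the range of the shRNA livers. Fabp2 was higher by 0.62 (SE 0.20, edgeR adjusted p = 0.0441), and the call was lost without shRNA replicate 2, 4 or 5 or without shRNA+BBR replicate 2, 3 or 4. The 5 enterocyte markers examined summed to at most 0.707 CPM in any library, and Sis and Alpi stayed at or below 3 counts in all of them. An antisense gene, 4933405D12Rik, overlaps Fabp2, and whether reads were counted by strand is not given in the sources used here.

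Fabp4, the adipocyte form and also a macrophage gene, binds fatty acids and is secreted from fat cells (ENSMUSG00000062515, chr3:10204088-10208576, minus strand). It was at 8.17, 7.33, 13, 5.93 and 10.9 CPM in Vec, and at 17.7, 28.5, 36.2, 34.0 and 30.2 CPM in Vec+BBR. Every Vec+BBR liver exceeded every Vec liver. The mean rose from 9.06 ± 2.85 to 29.3 ± 7.14 CPM (SD, n = 5), a ratio of 3.24 and a log2 fold change of 1.69 (SE 0.23, edgeR adjusted p = 0.000167). Without Vec replicate 3 the change was 1.84 (edgeR adjusted p = 4.06e-05).

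Under knockdown, Fabp4 was at 12.1, 9.21, 11.7, 8.46 and 8.25 CPM in shRNA, and at 16.6, 12.6, 28.5, 21.5 and 14.4 CPM in shRNA+BBR. The groups did not overlap, and the closest livers were 12.1 and 12.6 CPM. Fabp4 rose by 0.91 (SE 0.23, edgeR adjusted p = 0.0153), with an adjusted p of 0.0587 without shRNA+BBR replicate 3. Without BBR, the log2 fold change of Fabp4 for shRNA against Vec was 0.13 (SE 0.24, 95% interval from -0.36 to 0.62). It was 0.30 without Vec replicate 3 (edgeR adjusted p = 0.48), and the groups were not told apart at this spread. With BBR, knockdown livers were lower by point estimate, at -0.65 (SE 0.22), which missed the threshold (edgeR adjusted p = 0.0756). That difference was called by DESeq2 (adjusted p = 0.0485), without Vec+BBR replicate 1 (edgeR adjusted p = 0.0322) and without shRNA+BBR replicate 3 (edgeR adjusted p = 0.0253). The interaction was -0.78 (SE 0.33, unadjusted p = 0.0266, edgeR adjusted p = 0.216), and -0.93 without Vec replicate 3 (edgeR adjusted p = 0.153).

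Markers of other cells that express Fabp4 were read beside it. Of 7 adipocyte markers, Adipoq, Lep and Plin1, which define the cell, were at or below 3 counts in every library except Vec+BBR replicate 3, which had 10 counts of Adipoq and 11 of Lep. Without that library the Fabp4 change in Vec+BBR was 1.60 (edgeR adjusted p = 0.00076). The 2 adipocyte markers that were tested, Cfd and Cidec, the latter also a lipid droplet gene of fatty liver, were both called higher with BBR. Cfd changed by 3.22 (edgeR adjusted p = 0.00427) in Vec+BBR against Vec and 5.28 (edgeR adjusted p = 0.00226) in shRNA+BBR against shRNA, and Cidec by 2.29 (edgeR adjusted p = 0.0186) and 2.71 (edgeR adjusted p = 0.0132). The summed CPM of the 7 markers, most of it Cidec, ran from 5.98 to 131 in Vec, 133 to 221 in Vec+BBR, 6.44 to 12.9 in shRNA and 34.3 to 107 in shRNA+BBR. The summed CPM of 11 endothelial markers ran from 163 to 212 in Vec and from 201 to 277 in Vec+BBR, and 6 of the 11 were called higher. In shRNA it ran from 204 to 257 and in shRNA+BBR from 189 to 269, with 2 called higher and 2 lower. The summed CPM of 12 macrophage markers ran from 208 to 488 in Vec, 274 to 427 in Vec+BBR, 259 to 348 in shRNA and 326 to 464 in shRNA+BBR, with 2 called higher and 2 lower in Vec+BBR and 4 higher in shRNA+BBR. The 8 stellate cell markers summed to 165 to 307 CPM in Vec, 344 to 369 in Vec+BBR, 205 to 275 in shRNA and 275 to 403 in shRNA+BBR, and 4 were called higher with BBR in each background, Col1a1, Col3a1 and Pdgfrb among them in both. The part of these cells in the Fabp4 and Fabp5 results was not tested.

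Fabp5, the epidermal form, lies in the same cluster of FABP genes as Fabp4 on chromosome 3 (ENSMUSG00000027533, chr3:10012548-10016607, plus strand). It was at 2.35, 2.19, 9.37, 1.88 and 3.11 CPM in Vec, and at 7.22, 9.63, 11.9, 10.9 and 9.74 CPM in Vec+BBR. Vec replicate 3 alone reached into the range of the treated livers, while the other 4 Vec livers lay at or below 3.11 CPM. The log2 fold change was 1.38 (SE 0.35, edgeR adjusted p = 0.0119), and without Vec replicate 3 it was 2.04 (edgeR adjusted p = 4.03e-05). In shRNA it was at 3.43, 2.34, 2.66, 2.02 and 2.0 CPM, and in shRNA+BBR at 7.03, 6.05, 6.91, 11 and 3.23 CPM. Only shRNA+BBR replicate 5 fell within the shRNA range. Fabp5 rose by 1.46 (SE 0.36, edgeR adjusted p = 0.0143), and this was the only call among the 8 genes in that comparison that held with each of the 10 livers left out in turn. Knockdown without BBR gave -0.61 (SE 0.37, edgeR adjusted p = 0.291), and 0.06 without Vec replicate 3.

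Of the other genes of the Fabp4 and Fabp5 cluster, Pmp2 had no count in any library, and Fabp9 and Fabp12 reached at most 1 and 3 counts.

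Fabp3, the heart and muscle form, was barely present without BBR (ENSMUSG00000028773, chr4:130308595-130315463, plus strand). Its counts were 0, 2, 6, 0 and 1 in Vec, and 28, 30, 20, 28 and 19 in Vec+BBR. In shRNA they were 9, 7, 3, 3 and 2, and in shRNA+BBR 14, 24, 22, 14 and 10. In each background every BBR-treated liver exceeded every untreated one. In CPM the group means were 0.0940 ± 0.124 in Vec, 1.13 ± 0.195 in Vec+BBR, 0.227 ± 0.159 in shRNA and 0.769 ± 0.239 in shRNA+BBR (SD, n = 5). The log2 fold change was 3.52 (SE 0.53, edgeR adjusted p = 0.000317) in Vec+BBR against Vec and 4.64 without Vec replicate 3, and at so few counts its size depends on the prior count of the fit. It was 1.79 (SE 0.47, edgeR adjusted p = 0.0172) in shRNA+BBR against shRNA, with an adjusted p of 0.0552 without shRNA+BBR replicate 3. Fabp3 passed the filter on low counts only through its BBR libraries, so both differences were in part built into its being tested. With no filter they were 3.53 (edgeR adjusted p = 0.000325) and 1.78 (edgeR adjusted p = 0.0239). The interaction was -1.73 (SE 0.76, unadjusted p = 0.0339, edgeR adjusted p = 0.235), and -2.84 without Vec replicate 3 (edgeR adjusted p = 0.105). For shRNA against Vec the change was 1.18 (SE 0.66, edgeR adjusted p = 0.242), and 2.31 without Vec replicate 3 (edgeR adjusted p = 0.0522).

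The 7 muscle markers examined had a summed median of 0.301 CPM in Vec and 0.141 CPM in Vec+BBR, with a highest value of 6.28 CPM in 1 Vec+BBR liver. Zcchc17 overlaps Fabp3 on the other strand and reached 287 counts. Reads from the stretch they share cannot be told apart if strand was not used, and whether their exons overlap was not examined.

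Fabp7, the brain form, also rose by point estimate with BBR, without passing the threshold in either background (ENSMUSG00000019874, chr10:57784881-57788450, plus strand). It was at 1.35, 0.964, 0.588, 1.62 and 1.55 CPM in Vec, and at 2.01, 2.06, 2.14, 1.34 and 1.79 CPM in Vec+BBR. It was at 0.960, 1.12, 1.41, 1.40 and 1.25 CPM in shRNA, and at 1.45, 3.36, 2.70, 2.15 and 1.08 CPM in shRNA+BBR. The groups overlapped in each comparison, and Vec replicate 3, the highest Vec liver for the other 7 genes, was the lowest here. The log2 fold change was 0.61 (SE 0.28, edgeR adjusted p = 0.151) in Vec+BBR against Vec, 0.42 without Vec replicate 3 (edgeR adjusted p = 0.31), and 0.81 (SE 0.28, edgeR adjusted p = 0.053) in shRNA+BBR against shRNA. The last comparison was called by DESeq2 (adjusted p = 0.0326), without shRNA+BBR replicate 1 (edgeR adjusted p = 0.0339) and without shRNA+BBR replicate 5 (edgeR adjusted p = 0.0157). The 6 glial and neural markers summed to at most 3.33 CPM in any library, which is of the same size as Fabp7 itself. Of the 12 macrophage markers given above, 2 were called higher and 2 lower in Vec+BBR against Vec. In shRNA+BBR against shRNA, 4 of them were called higher and 0 lower. The part of these cells in the Fabp7 results was not tested.

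Dbi holds activated fatty acids in the cytosol and buffers the acyl-CoA pool (ENSMUSG00000026385, chr1:120113280-120121078, minus strand). It was at 376, 363, 690, 236 and 418 CPM in Vec, and at 584, 409, 536, 443 and 537 CPM in Vec+BBR. The Vec livers, from 236 to 690 CPM, enclosed the whole Vec+BBR range, and the log2 fold change of 0.27 (SE 0.23, edgeR adjusted p = 0.466) was within the spread between mice. That range rested on Vec replicate 3, without which the Vec livers lay between 236 and 418 CPM and the change was 0.52 (edgeR adjusted p = 0.0839). In shRNA it was at 327, 254, 312, 258 and 222 CPM, and in shRNA+BBR at 440, 520, 756, 576 and 300 CPM. Of the shRNA+BBR livers, replicate 5 alone lay within the shRNA range. Dbi rose by 0.92 (SE 0.23, edgeR adjusted p = 0.0152), with an adjusted p of 0.0567 without shRNA+BBR replicate 3. For shRNA against Vec the change was -0.60 (SE 0.23, edgeR adjusted p = 0.0873), called only without Vec replicate 4. It was -0.34 without Vec replicate 3 (edgeR adjusted p = 0.314), and the shRNA livers did not reach the Vec median of 376 CPM.

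Scp2 encodes a long peroxisomal thiolase and a short sterol carrier protein from different start sites (ENSMUSG00000028603, chr4:108043839-108144998, minus strand). Of its 9 annotated transcripts, the longest has 16 exons and 2640 bases, and the others have 527 to 911 bases. It was at 2820, 2810, 3260, 2290 and 3090 CPM in Vec, and at 3540, 3070, 3580, 3450 and 3570 CPM in Vec+BBR. It was at 2510, 2300, 2260, 2160 and 1860 CPM in shRNA, and at 2660, 2610, 3410, 2940 and 2490 CPM in shRNA+BBR. Vec+BBR was the highest group and shRNA the lowest, and these 2 groups did not overlap.

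For Scp2 the differences in counts were small. The log2 fold change was -0.36 (SE 0.11, edgeR adjusted p = 0.0308) in shRNA against Vec, with an adjusted p of 0.083 without Vec replicate 3. That call was also lost without Vec replicate 1 or 5 or without shRNA replicate 3, 4 or 5. With BBR under knockdown Scp2 rose by 0.35 (SE 0.11, edgeR adjusted p = 0.0359), a call lost without shRNA replicate 2, 3, 4 or 5 or without shRNA+BBR replicate 3 or 4. The changes of 0.27 in Vec+BBR against Vec (edgeR adjusted p = 0.0943, and 0.31 with 0.056 without Vec replicate 3) and -0.29 in shRNA+BBR against Vec+BBR (edgeR adjusted p = 0.105) missed the threshold.

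Scp2 was the only one of the 8 genes whose transcript length, as used by the authors for FPKM, differed between libraries. The length implied by the deposited count, total count and FPKM of a gene was 553 bases for Fabp1 in all 20 libraries and moved by at most 0.346% for the 6 other FABP and acyl-CoA binding genes. For Scp2 it ran from 1309 to 1642 bases. This measure was chosen after its values were seen. It was 1541, 1536, 1561, 1387 and 1510 bases in Vec, and 1421, 1355, 1404, 1348 and 1309 bases in shRNA. It was 1639, 1642, 1618, 1577 and 1608 bases in Vec+BBR, and 1478, 1631, 1632, 1550 and 1497 bases in shRNA+BBR. The Vec+BBR livers all had a longer value than any Vec liver, and the shRNA+BBR livers all had a longer value than any shRNA liver. How often the implied length of other genes separates these groups was not counted, so nothing particular to Scp2 is concluded from this.

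The mean implied length of Scp2 was 1507 ± 69.4 bases in Vec, 1617 ± 26.3 in Vec+BBR, 1367 ± 45.4 in shRNA and 1558 ± 72.4 in shRNA+BBR (SD, n = 5). By a two-sided exact permutation test over the 10 mice of each comparison, adjusted over the 4 comparisons, it was longer in Vec+BBR than in Vec (p = 0.00794, adjusted 0.0159) and in shRNA+BBR than in shRNA (p = 0.00794, adjusted 0.0159). For both, this p is the smallest that 5 against 5 mice can give. It was shorter in shRNA than in Vec (exact permutation p = 0.0238, adjusted 0.0317), while the BBR groups gave an exact permutation p of 0.135. Among 7143 genes with at least 100 counts in every library, 16.4% had an implied length that moved by as much as that of Scp2 or more. A length that varies between libraries can arise where a counting program weights transcripts by their abundance, but the program is not named in the sources used here and the transcripts were not measured separately.

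In FPKM, Scp2 was at 1790 ± 187 in Vec, 2200 ± 106 in Vec+BBR, 1640 ± 124 in shRNA and 1820 ± 192 in shRNA+BBR. Deposited FPKM differs from the normalized CPM used above in its length and in its scaling, which is to the total count without TMM, so the same two-sided exact permutation test was run on 3 measures, adjusted over the 4 comparisons in each. These tests were chosen after the data were seen. In normalized CPM all 4 comparisons gave an adjusted p of 0.0238. In count over total count, with no length, the adjusted p was 0.0106 for all comparisons but shRNA against Vec, where it was 0.0476. In FPKM it was 0.0159 for Vec+BBR against Vec and for shRNA+BBR against Vec+BBR, and 0.222 and 0.169 for shRNA against Vec and shRNA+BBR against shRNA. The last 2 comparisons therefore passed this exact permutation test in both measures without a length and missed it in FPKM, with every direction kept.

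The ratio of the shRNA mean to the Vec mean of Scp2 was 0.777 in normalized CPM, 0.835 in count over total count and 0.92 in FPKM, so that scaling and length both moved it. For Vec+BBR against Vec the ratios were 1.21, 1.32 and 1.23 in the same order. Without Vec replicate 3, the exact permutation p for shRNA against Vec was 0.0476 in CPM, 0.0952 in count over total count, 0.444 in FPKM and 0.0476 for the implied length. For Vec+BBR against Vec it was 0.0317 in CPM and 0.0159 in the other 3, the smallest that 5 against 4 mice can give. The plot of Scp2 reads, length and FPKM puts the 3 measures side by side.

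**Figure D3:**
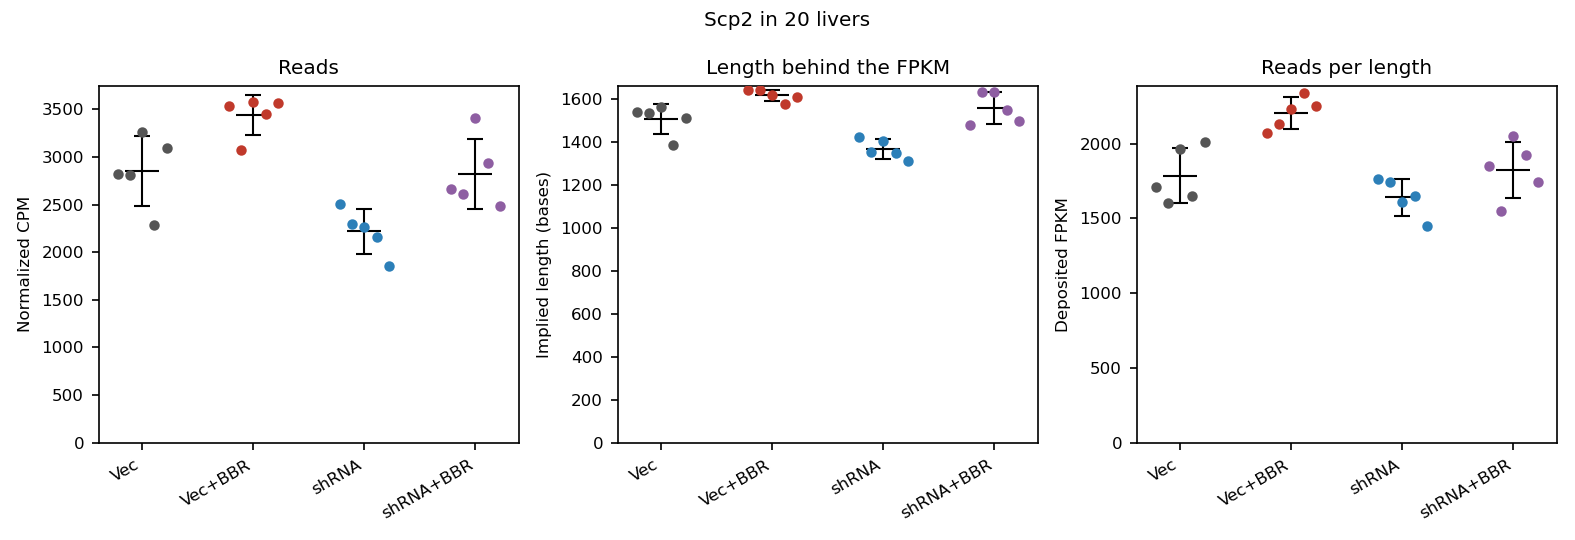
Scp2 in 20 livers as normalized CPM, as the length in bases implied by count and FPKM, and as deposited FPKM, with points for livers and bars for the mean and SD (n = 5). The implied length is 1309 to 1421 bases in shRNA and 1577 to 1642 bases in Vec+BBR, and the shRNA group sits closer to Vec in FPKM than in CPM.

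The order of the group means was shared by part of the 8 genes. In CPM, shRNA was the lowest group for Fabp1, Fabp2, Fabp5, Dbi and Scp2, and Vec was the lowest for Fabp3, Fabp4 and Fabp7. Vec+BBR was the highest group for Fabp1, Fabp3, Fabp4, Fabp5 and Scp2, and shRNA+BBR for Fabp2, Fabp7 and Dbi. Neighbouring groups in these orders overlapped in their livers in all but 2 cases, which were shRNA and shRNA+BBR for Fabp3 and for Fabp4. For Fabp3 the closest livers of these groups had 9 and 10 counts. How often such groups separate over all tested genes was not counted, so nothing is concluded from these 2 cases. The plot of levels by group shows all 20 livers for each gene.

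**Figure D4:**
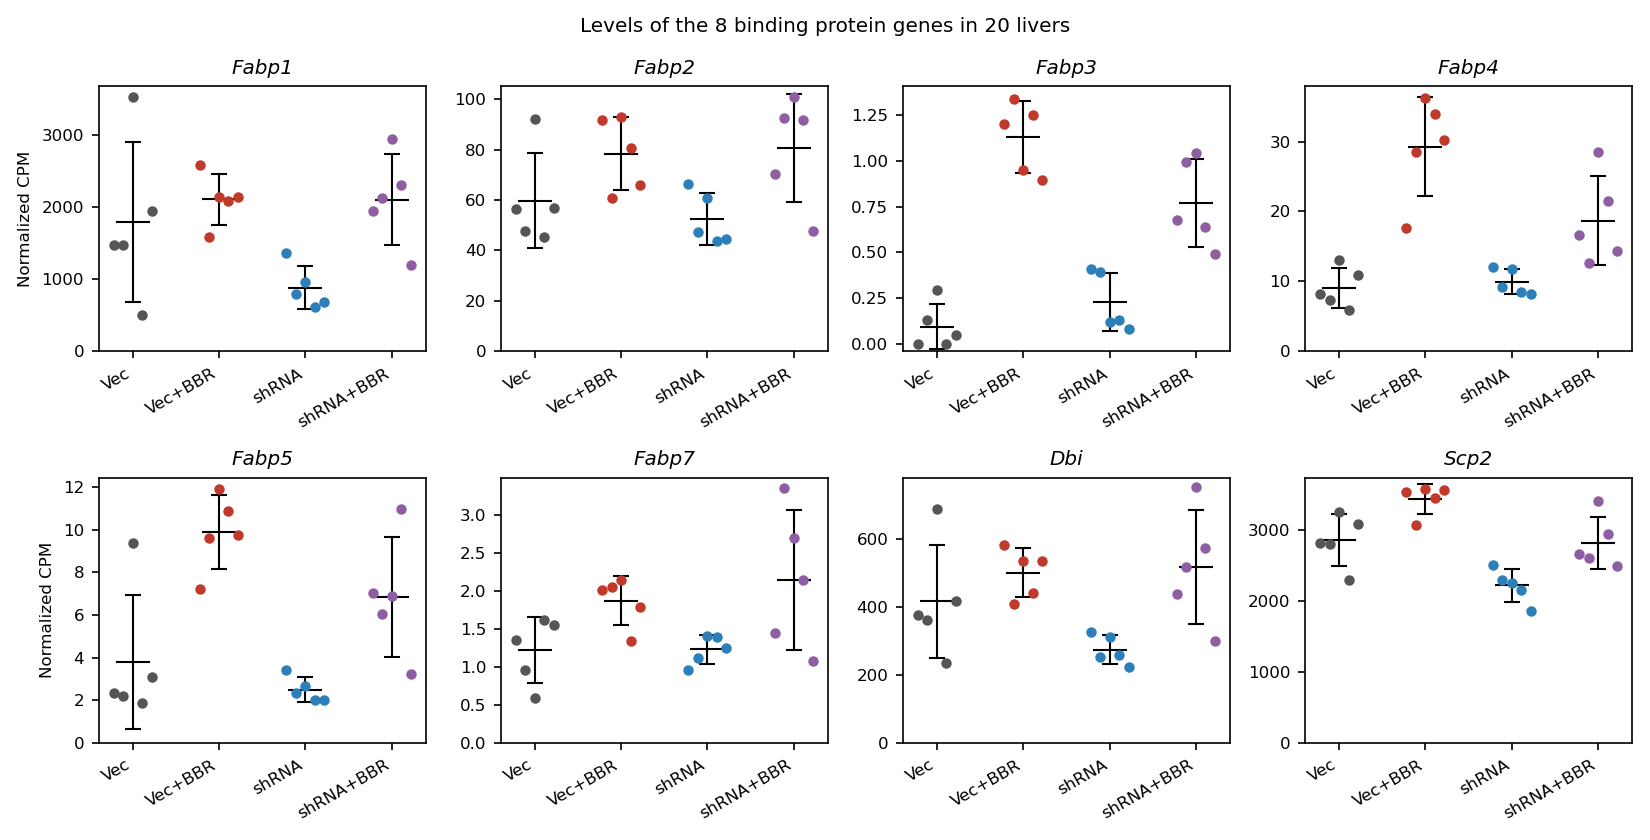
Normalized CPM of the 8 genes in each liver, with a panel per gene, points for livers and bars for the mean and SD (n = 5). Fabp3 and Fabp4 separate treated from untreated livers in both backgrounds, while the Vec group of Fabp1, Fabp5 and Dbi is widened by its replicate 3.

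Within groups, the same livers tended to be high or low for several genes. In shRNA, replicate 1 was the highest for 7 of the 8 genes, and in shRNA+BBR replicate 5 was the lowest for 7 of the 8. In Vec, replicate 4 was the lowest for 6 of the 8. The replicate numbers do not mark shared mice between groups. Relative spread differed between the genes, and in Vec the SD was 61.8% of the mean for Fabp1, 83.5% for Fabp5, 40.1% for Dbi and 12.9% for Scp2. In Vec+BBR it was 16.9%, 17.7%, 14.5% and 6.19% for the same genes. The map of deviations from the group mean shows this by liver.

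**Figure D5:**
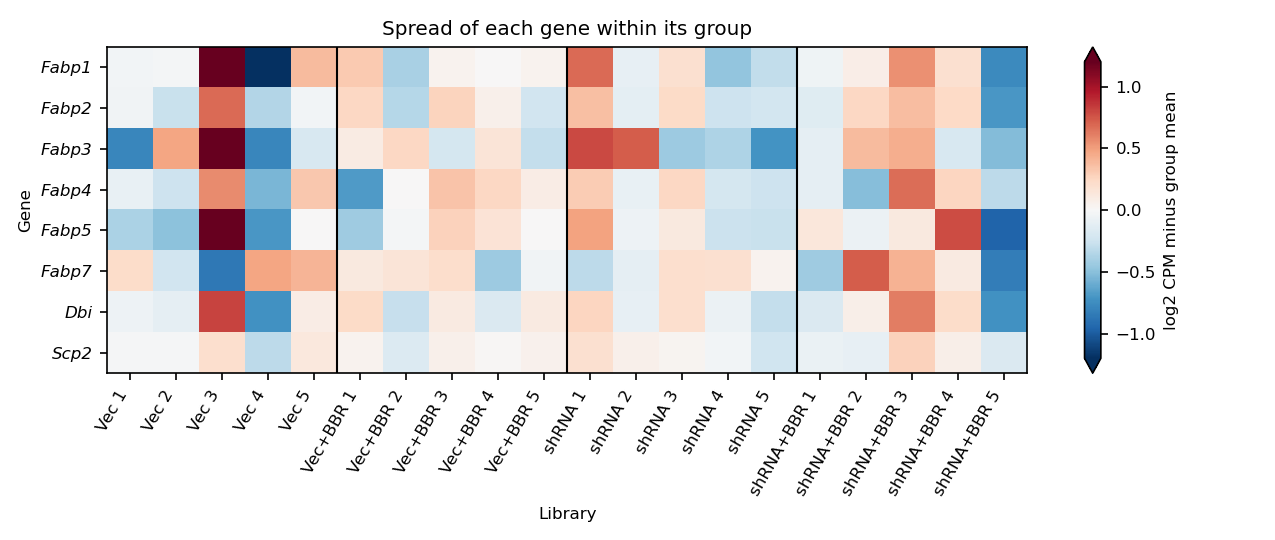
Log2 CPM of each gene minus its group mean, for 20 libraries, with red above and blue below the group mean. Vec replicate 3 is above its group mean for 7 genes and below it for Fabp7, and Vec replicate 4 and shRNA+BBR replicate 5 are below theirs for most genes.

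Genes with the most similar pattern over the 20 libraries were sought among the 12342 tested genes by Pearson's r of log2 CPM, as a description only, since the libraries share their groups and their depth. Fabp1 and Dbi were each other's near neighbours, at r = 0.958, and at 0.921 with the group means removed. Mrpl16, a mitochondrial ribosomal protein gene, followed for Fabp1 at 0.951 and led for Dbi at 0.965. The third for Fabp1 was S100a10 at 0.949, and the third for Dbi was Hprt at 0.938. For Fabp2 the closest were Dbi at 0.909, Ppia at 0.885 and Acot13, an acyl-CoA thioesterase gene, at 0.884. For Fabp5 they were Anxa2 at 0.970, Fkbp1a at 0.962 and Sdcbp2 at 0.959, and for Fabp4 they were Corin at 0.943, Bmp8b at 0.940 and Sdcbp2 at 0.939.

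For Scp2 the closest genes were Tdrp at 0.958, Vps41 at 0.958 and Serpina7, the thyroxine-binding globulin gene, at 0.949. For Fabp3 they were Uso1 at 0.908, Ralb at 0.905 and Aqp7, a glycerol channel gene, at 0.902. Fabp7 had the weakest likenesses, with Casp1 at 0.858, Cybb at 0.802 and Igsf6 at 0.763. With the group means removed, the r of these 24 pairs lay between 0.550 for Fabp3 with Ralb and 0.937 for Dbi with Mrpl16.

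Relatives of Dbi and Scp2 by protein domain were read beside them. Among 5 tested relatives of Dbi with an acyl-CoA binding domain, Acbd3 was called higher in Vec+BBR (0.33, edgeR adjusted p = 0.00914) and in shRNA (0.42, edgeR adjusted p = 0.00174) than in Vec. In shRNA against Vec, Eci2, an enoyl-CoA isomerase gene, was called lower by -0.39 (edgeR adjusted p = 0.00459) and Acbd6 by -0.45 (edgeR adjusted p = 0.00561). Among 3 tested relatives of Scp2, Hsd17b4, a peroxisomal β-oxidation enzyme gene, was lower in shRNA than in Vec (-0.29, edgeR adjusted p = 0.0292) and higher in shRNA+BBR than in shRNA (0.29, edgeR adjusted p = 0.031). Hsdl2 was also higher in shRNA+BBR than in shRNA (0.32, edgeR adjusted p = 0.0249).

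The steps before and after the binding proteins were read for context. Of 7 tested genes of fatty acid uptake, 3 were called higher in Vec+BBR than in Vec, namely Cd36 (0.55, edgeR adjusted p = 0.00111), Slc27a4 (0.51, edgeR adjusted p = 0.0162) and Cav1 (0.75, edgeR adjusted p = 0.0188). Slc27a5, a bile acid and very long-chain acyl-CoA synthetase gene, was lower (-0.75, edgeR adjusted p = 0.00102), and the most abundant of the list, Slc27a2, was at 1390 ± 143 and 1220 ± 110 CPM (edgeR adjusted p = 0.178). Of 8 tested acyl-CoA synthetases, 2 were called higher in Vec+BBR (Acsl3 and Acsl4) and 1 lower (Acsm1), and Acsl1, the most abundant, was at 691 ± 189 CPM in Vec and 808 ± 65.0 CPM in Vec+BBR (edgeR adjusted p = 0.298). Under knockdown Acsl1 was called higher with BBR (0.45, edgeR adjusted p = 0.0366) and Acsm5 lower (-0.50, edgeR adjusted p = 0.0179). Of the uptake genes, Slc27a4 was called higher in shRNA+BBR than in shRNA (0.75, edgeR adjusted p = 0.00431) and Slc27a5 lower (-0.56, edgeR adjusted p = 0.0109), and Slc27a4 was lower in shRNA than in Vec (-0.63, edgeR adjusted p = 0.00461).

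Among 7 receptors, none was called in Vec+BBR against Vec by edgeR and 0 passed an unadjusted p under 0.05, and in shRNA+BBR against shRNA Pparg was higher and Rxra lower (-0.43, edgeR adjusted p = 0.0441). Of 12 PPARα target genes, 3 were called higher in Vec+BBR and 5 in shRNA+BBR, with none lower by edgeR in either. At an unadjusted p under 0.05, 2 were lower in Vec+BBR, Cyp4a10 and Acot1, and 0 in shRNA+BBR. Of 11 tested PPARγ target genes of fatty liver, 9 were called higher in Vec+BBR and 8 in shRNA+BBR, with none lower by edgeR and 0 lower at an unadjusted p under 0.05 in either. In shRNA against Vec, 3 of these 11 were called lower and 0 higher, and Cd36 was higher at an unadjusted p under 0.05. In shRNA+BBR against Vec+BBR, 1 was called lower and 0 higher. Of the 12 PPARα target genes, 3 were called lower and 0 higher in shRNA against Vec. In shRNA+BBR against Vec+BBR, 1 of the 12 was called higher and 2 lower. The 8 binding protein genes are in neither of these target lists.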

How the data were processed

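Poly(A) RNA from the liver of 20 db/db mice was sequenced, with 1 library per mouse. Groups were taken from the deposited labels and replicate numbers from the titles. Each deposited file lists, per the file headers, 1 FPKM and 1 expected count per gene. The expected counts deposited are not normalized, and FPKM was scaled by the authors for length and total count. The submitters' processing notes name the build mm10. The aligner, the counting program and the annotation are not given in the sources used here. The members' counts were whole numbers in all libraries. Positions come from GENCODE M21 (GRCm38), which holds 22255 of the 22298 identifiers.

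Counts were rounded, filtered by filterByExpr (minimum count 10, minimum total 15), scaled by TMM (factors from 0.873 to 1.14) and fitted with edgeR 4.0.16 in R 4.3.3, with 4 group means in 1 model and prior degrees of freedom of 4.88. SE is the log2 fold change divided by the square root of F. Alternatives were RLE scaling, no filter, DESeq2 1.42.0, a fit of only the groups compared, the replicate number as a block, and each library left out. The fit was tested on simulated data. No 2 of 40 library pairs within groups were duplicates (chi-square per gene at least 14.3). Scp2 implied length, FPKM, CPM and count over total count were compared by exact permutation tests. The edgeR and DESeq2 p-values set a difference between groups against the spread between these mice. The exact permutation p sets it against all assignments of the same mice to the groups.

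The named genes are the 8 members, the called and the most abundant genes of context lists, and the 3 genes with the highest Pearson's r to each member, with a prior count of 2. The members and lists were chosen with earlier results of these data known. Precision rests on total counts of 17432920 to 25024103 per library.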

Additional observations from a re-analysis of the deposited data

Results flagged for a closer look

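In 3 of the 32 sets of 5 livers examined, formed by each of the 8 genes and 4 groups, 1 liver lay far from the others of its group, its gap to the nearest being over 0.71 of the range of the group. Chance alone gives about 1 in 20. In Vec, the highest Fabp2 value was 92.2 CPM and the highest Fabp5 value 9.37 CPM, both in replicate 3. In Vec+BBR, the lowest Scp2 value was 3070 CPM, in replicate 2. None of the 8 genes passed an adjusted p of 0.05 in the edgeR interaction test, against 3 at an unadjusted p under 0.05 and 0 by DESeq2 among the 7 for which it gave an adjusted p.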

How the results depend on the processing

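Of 682 recomputed fold changes of the 8 genes, 612 kept their direction and their side of the threshold, 40 lost a call, 15 gained one and 15 changed sign, and the cause was not tested. The number of members called stayed at 3 in Vec+BBR against Vec under RLE scaling, no filter, DESeq2, a fit of only the groups compared and the replicate block, and was 3 to 4 with each library left out. In shRNA against Vec, 0 members were called with no filter on low counts, 0 in a fit of only these groups and 1 with the replicate block, and 0 to 3 with each library left out. In shRNA+BBR against Vec+BBR, DESeq2 called 1, the replicate block 1, and the fits with each library left out 0 to 1. In shRNA+BBR against shRNA those fits called 1 to 8. The replicate number does not pair the mice: after removal of group means, libraries of the same number correlated at over 0.1 in 3 of 5 numbers for shRNA+BBR and shRNA, 1 of 5 for Vec+BBR and Vec, and 0 for the other pairs, and the replicate block moved counts of genes called by less than 1.5 times. Under it Fabp1 was no longer called in shRNA against Vec, and between the BBR groups Fabp4 was called, at a lower level under knockdown.

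Genes called over the whole table with each library left out ran from 1239 to 2395 in Vec+BBR against Vec, 1015 to 2282 in shRNA against Vec, 538 to 1128 in shRNA+BBR against Vec+BBR, 661 to 2527 in shRNA+BBR against shRNA and 5 to 122 for the interaction. The lowest of these were without Vec replicate 2, shRNA replicate 4, shRNA+BBR replicate 2, shRNA+BBR replicate 3 and Vec+BBR replicate 4, in that order. A fit of only Vec+BBR and Vec called 1179, and DESeq2 called 341 for the interaction, against 18 by edgeR. None of the results that changed sign was called in the fit reported above or in the setting where the sign changed. With each library left out, shRNA against Vec ran from -0.28 to 0.03 for Fabp2, -0.78 to 0.06 for Fabp5 and -0.17 to 0.14 for Fabp7. In shRNA+BBR against Vec+BBR it ran from -0.04 to 0.18 for Fabp2 and -0.12 to 0.19 for Dbi. The interaction ran from -0.57 to 0.26 for Fabp5 and -0.01 to 0.39 for Fabp7, and was -0.06 for Fabp5 with the replicate block. The exact permutation tests of Scp2 in FPKM, CPM and count over total count were chosen after seeing the data. In FPKM, 7 of the 8 genes kept the order of group means, all but Scp2. Depth limits Fabp3, whose counts were under the floor of 3 in 4 of the 5 Vec libraries.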
